A study of Mus musculus with 2 samples.

Results

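Dense groups of TCF12 binding sites in CH12.LX cells are stretches of the genome where 10 or more peak summits follow one another with no gap above 12 kb. They were selected on the positions of their summits alone, by sorting the summits of the authors' optimal mm10 peak list on the autosomes, linking neighbours at most 12 kb apart and keeping runs of at least 10. This gave 266 groups that hold 3559 peaks, which is 9.93% of all 35848 optimal peaks and 10.1% of the 35369 on autosomes. The other 31810 autosomal peaks are the comparison used throughout. Their number, spacing and span therefore are a description and carry no test.

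CH12.LX is an immortalised female mouse line from a B-cell lymphoma, of strain B10.H-2aH-4bp/Wts. Chromatin bound by TCF12 was immunoprecipitated and sequenced (ChIP-seq) in 2 biological replicates. The labels name no treatment and the replicates form 1 group, so no condition can be compared. The replicates are of 1 cell line, and their spread says nothing of other B cells.

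TCF12, also named HEB, is an E protein, a class of basic helix-loop-helix transcription factors that bind DNA as dimers at the E-box, a motif of the form CANNTG. E proteins are known for driving early B and T cell development, and ID proteins hold them in check by forming dimers that cannot bind DNA. Stretches with many closely spaced binding sites of such factors often lie in and around genes that define a cell type.

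Sequences from 8 of the named groups are shown because E-boxes are the motif that TCF12 is known to bind. They come from groups rebuilt by the same rule on the authors' mm9 list and matched to the mm10 groups by gene symbol, and each is 120 bases of the mm9 genome, plus strand. Each surrounds the summit of the strongest peak in its group that holds CAGCTG or CACCTG within 50 bp. Capitals mark that E-box, and CAGGTG is CACCTG read on the other strand.
Grap group, chr11:61497462-61497581, 71 bp upstream of the 5' end of Fam83g: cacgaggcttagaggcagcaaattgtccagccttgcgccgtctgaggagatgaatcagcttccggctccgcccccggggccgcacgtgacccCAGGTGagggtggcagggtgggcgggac
Cyp11a1 group, chr9:57804786-57804905, in an intron of Sema7a: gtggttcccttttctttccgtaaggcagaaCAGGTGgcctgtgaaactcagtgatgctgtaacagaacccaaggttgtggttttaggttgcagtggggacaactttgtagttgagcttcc
Jade2 group, chr11:51658347-51658466, in an exon of Jade2 (Phf15 in the mm9 annotation): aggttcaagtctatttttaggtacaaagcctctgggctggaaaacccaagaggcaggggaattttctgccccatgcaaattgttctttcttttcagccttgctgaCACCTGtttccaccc
Rac2 group, chr15:78402150-78402269, in an intron of Rac2: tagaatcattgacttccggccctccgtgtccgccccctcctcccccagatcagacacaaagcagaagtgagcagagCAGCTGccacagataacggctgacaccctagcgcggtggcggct
Zbtb38 group, chr9:96620016-96620135, in an intron of Zbtb38: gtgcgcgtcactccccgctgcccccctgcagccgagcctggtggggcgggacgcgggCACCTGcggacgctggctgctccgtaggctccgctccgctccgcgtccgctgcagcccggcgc
Ubald2 group, chr11:116300797-116300916, between genes: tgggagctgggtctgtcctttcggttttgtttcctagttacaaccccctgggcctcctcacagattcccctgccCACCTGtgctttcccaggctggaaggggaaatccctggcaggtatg
St6gal1 group, chr16:23301966-23302085, in an intron of St6gal1: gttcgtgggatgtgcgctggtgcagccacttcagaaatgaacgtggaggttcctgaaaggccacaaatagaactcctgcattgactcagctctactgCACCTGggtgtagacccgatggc
Spib group, chr7:51788451-51788570, in an intron of Pold1, 1070 bp upstream of the 5' end of Spib: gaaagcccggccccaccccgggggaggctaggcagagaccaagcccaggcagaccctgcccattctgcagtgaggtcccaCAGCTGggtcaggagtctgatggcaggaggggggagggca

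The groups held 10 to 34 summits, with a median of 12, over spans of 10.7 to 89.5 kb, with a median of 34.1 kb. Together they covered 9.48 Mb, which is 0.385% of the autosomal length up to the last relaxed peak. There were 37.5 optimal summits per 100 kb inside the groups and 1.30 per 100 kb elsewhere. Neighbouring summits inside a group lay a median of 1566 bp apart, with quartiles of 704 and 4217 bp. At the edge of the rule, 67 groups had exactly 10 summits and 109 runs had 9, and the medians of their median signals were 38.9 and 35.5. The widest gap inside a group was 11992 bp and the narrowest beside one was 12005 bp. No group would have formed on chromosome X, which holds 467 optimal peaks.

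Some summits are not separate regions. In dense groups 26.9% of peaks (956 of 3559, Wilson 95% interval 25.4 to 28.3%) overlapped another optimal peak, against 21.5% (21.1 to 22.0%) of other autosomal peaks. After overlapping peaks were merged, 85 of the 266 groups had fewer than 10 peaks. A member's value in a replicate is the highest signal of that replicate's relaxed peaks overlapping it, so 912 members shared their replicate 1 peak with another member and 859 shared their replicate 2 peak. Sums over a group count each replicate peak once.

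**Figure D1:**
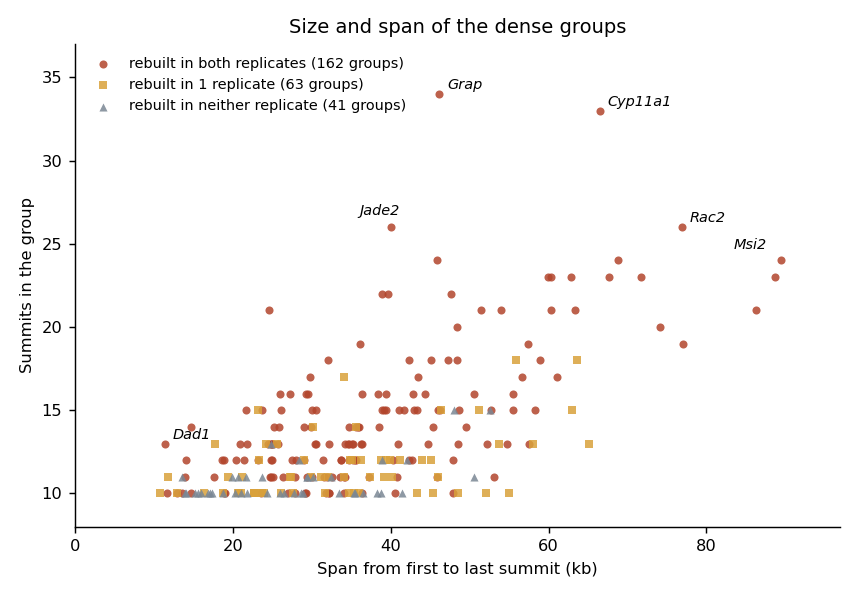
Number of summits (y axis) against the span from first to last summit in kb (x axis), 1 point per dense group. Colours and shapes give whether the group was rebuilt from both replicates (162 groups), 1 replicate (63) or neither (41), and the 10 groups with the most summits were all rebuilt from both.

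The same rule was run on the strongest 35369 autosomal peaks of each replicate alone. Replicate 1 gave 258 groups and found 198 of the 266 again (74.4%). Replicate 2 gave 273 groups and found 189 (71.1%). Both replicates found 162 groups (60.9%) and 41 (15.4%) were found in neither. The share found in both was 26.9% for groups of exactly 10 summits, 52.6% for 11 to 12, 78.6% for 13 to 15 and 94.1% for 16 or more. The optimal list was made from both replicates, so these counts are not independent of the rule.

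Peaks in dense groups had about the same middle signal as other peaks but more very strong ones. The signal, in the peak caller's own units, had a median of 36.1 in dense groups and 35.0 in other autosomal peaks, and a 90th percentile of 120 in dense groups and 94.5 in others. A signal of at least 100 was found in 13.5% of members (480 of 3559, 12.4 to 14.6%), against 8.60% of other peaks (8.30 to 8.91%) and 9.09% of all autosomal peaks. In replicate 1 the median was 25.9 in dense groups and 24.5 in other peaks. In replicate 2 it was 16.2 in dense groups and 14.9 in other peaks. The ratio of replicate 1 to replicate 2 had a median of 1.61 in dense groups and 1.66 in others, so the replicates differed in level by more than the groups differed from other peaks. The strict threshold, an irreproducible discovery rate of 0.01 or less, was met by 69.8% of members and 67.6% of other peaks, with 67.8% over all. A conservative peak overlapped 83.2% of members and 83.6% of other peaks, with 83.6% over all. Members were close to the background on both counts.

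Within a group the signal was uneven. The strongest peak was a median of 3.95 times the group's median signal, with a range of 1.20 to 14.4 times, and held a median of 22.0% of the summed signal. That share was lowest in the Zmiz1 group (9.11%) and highest in the Ksr2 group (57.7%), both groups being picked after their values were seen. A peak of at least 100 was present in 208 groups and one of at least 200 in 86. Across the 266 groups, the summed signals of the 2 replicates had a Spearman rho of 0.936 and a Pearson r of 0.927 on the log2 scale. This is a description: the groups share both libraries, and a group with more summits has a larger sum in each. For group medians rho was 0.603.

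The Grap group had the most summits, 34 within 46.1 kb (mm10 chr11:61638929-61685049). Grap encodes an adaptor of the GRB2 family that acts in lymphocyte signalling. Its strongest peak lay 8554 bp upstream of the 5' end of Grap, with a signal of 170 in replicate 1 and 140 in replicate 2. The 5' ends of Grap and Fam83g both lie inside, and 4 summits were within 1 kb of one of them.

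The Cyp11a1 group had 33 summits within 66.5 kb (chr9:57928956-57995468). It is named by the 5' end nearest to its strongest peak, but the only 5' end inside it is that of Sema7a, a membrane-anchored semaphorin. The strongest peak had 133 in replicate 1 and 84.2 in replicate 2.

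Jade2, which encodes a PHD finger protein of histone acetyltransferase complexes, held all 26 summits of its group inside the gene (chr11:51817996-51858052). The strongest had 180 in replicate 1 and 151 in replicate 2. The Rac2 group, also of 26 summits, took in the 5' ends of Rac2, a GTPase of blood cells, and Cyth4, C1qtnf6 and Sstr3. Its strongest peak was weaker, with 66.6 in replicate 1 and 50.1 in replicate 2. St6gal1, the sialyltransferase that makes the glycan ligand of CD22, held 23 summits inside the gene. Its strongest peak had 250 in replicate 1 and 196 in replicate 2. The rest of the 10 largest groups were Zbtb38, Ubald2 and Msi2 with 24 summits each and Ccr7 and Sik1 with 23 each. The Msi2 group was the longest of all and had no summit within 1 kb of a 5' end.

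**Figure D2:**
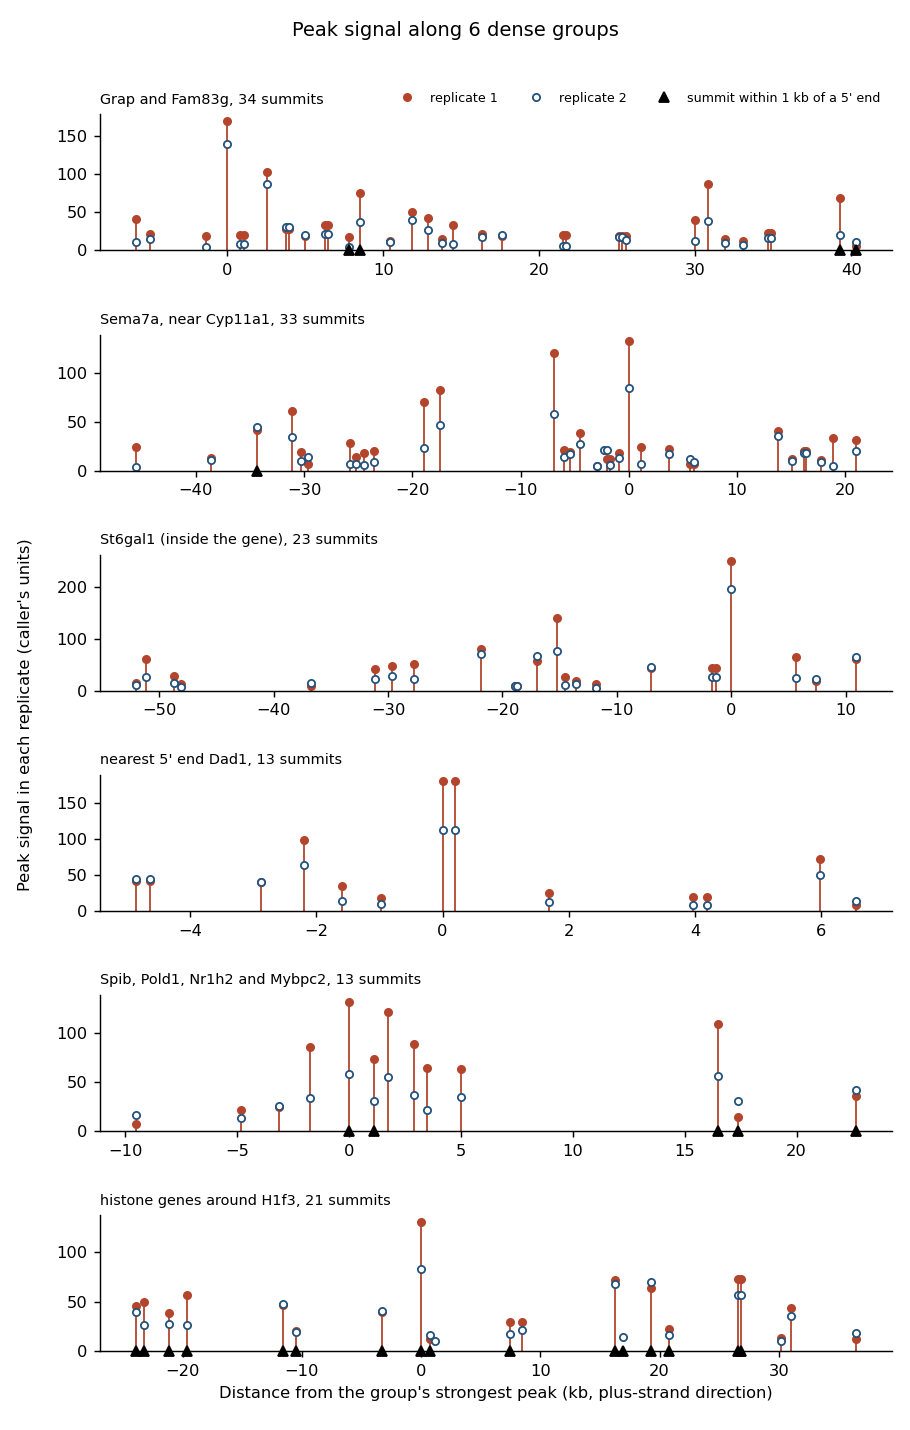
Signal of each peak in replicate 1 (filled) and replicate 2 (open), in the caller's units, against the distance in kb of its summit from the strongest summit of the group, for 6 groups. Triangles mark summits within 1 kb of a 5' end. A few tall peaks stand among many low ones in the Grap, Sema7a and St6gal1 maps, and 16 of the 21 summits around H1f3 are at 5' ends. Equal values side by side are summits that share 1 replicate peak.

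The highest median signals were in the groups of Spib (96.3), Cbfa2t3 (91.3), Id2 (88.7), Hes1 (86.4) and Tfeb (84.8). Spib is an ETS factor of B cells and Cbfa2t3 an ETO family corepressor known to join E protein complexes. Id2 encodes an ID protein, and its group lay 94.5 kb upstream of its 5' end, counted from the strongest peak. Hes1 encodes a Notch-responsive repressor, and its group lay 30014 bp upstream. The strongest peak near Id2 had 120 in replicate 1 and 103 in replicate 2, and that near Hes1 had 143 in replicate 1 and 116 in replicate 2. The Spib group had 5 of its 13 summits within 1 kb of the 5' ends of Spib, Pold1 or Nr1h2. The groups of Dad1 (1.14 summits per kb), Ralgps2 (0.957), Mef2d (0.933), Cbfa2t3 (0.930) and Tyk2 (0.860) were the densest. After merging, the 13 summits near Dad1 became 10 peaks and the 11 of Cbfa2t3 became 8. The lowest medians were near Plekha2 (20.4), Trib1 (21.0) and Dusp6 (21.3).

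The strongest member lay in Arid3a, a transcription factor known from B cells, with 264 in replicate 1 and 199 in replicate 2. The next was inside Gas7, with 243 in replicate 1 and 206 in replicate 2, and the third was the St6gal1 peak. Cbfa2t3 followed with 231 in replicate 1 and 187 in replicate 2, 1404 bp upstream of the 5' end. Il21r, the receptor of interleukin 21, had 211 in replicate 1 and 182 in replicate 2. All 10 strongest members had the maximum score of 1000, and 1 of them, at H1f2, was at a promoter.

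A smaller share of dense-group peaks than of other peaks lay at promoters, taken as 1 kb to either side of a protein-coding 5' end. Each gene counted with 1 5' end, the outer end of its annotated span, so its other starts are left out. For example, a member with a signal of 122 lay at another RefSeq start, inside Prdm1. Promoters held 14.8% of members (528 of 3559, 13.7 to 16%), against 30.6% of other peaks (30.1 to 31.2%) and 29.1% of all autosomal peaks. Gene bodies held 47.1% of members and 38.5% of other peaks, and 38.1% of members and 30.9% of other peaks lay outside genes. The promoter share was lower in dense groups in each of 5 equal bins of signal, at 16.8% against 42.1% of other peaks in the strongest bin and 14.5% against 25.2% in the weakest. The intervals cover counting error only and treat neighbouring peaks as independent, which they are not.

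**Figure D3:**
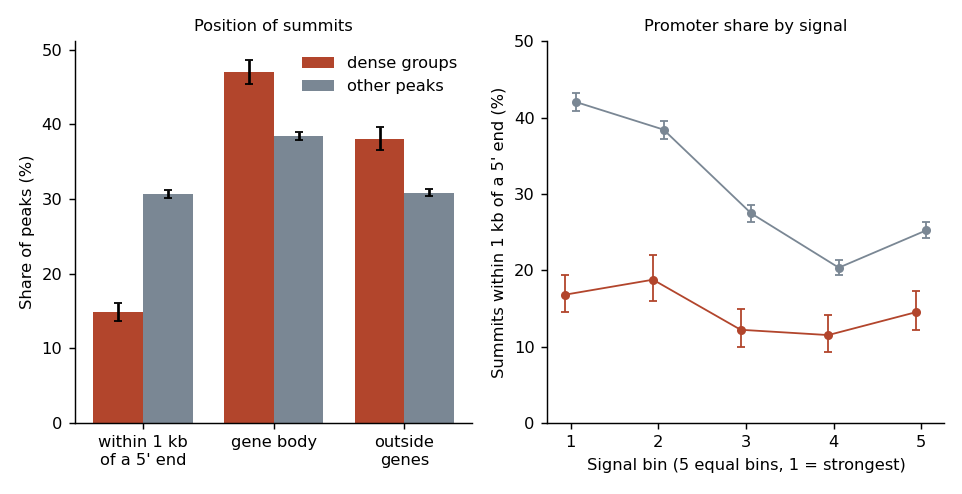
Left, share of peaks in % within 1 kb of a 5' end, in gene bodies and outside genes, for dense groups and other autosomal peaks. Right, share within 1 kb of a 5' end in each of 5 equal bins of signal. Bars and points are shares with Wilson 95% intervals, and dense groups are lower at 5' ends in every bin.

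Seen from the genes, the order was the other way round. Of the 343 5' ends inside dense groups, 89.8% (308) had a summit within 1 kb, against 40.8% (8147 of 19980) of those elsewhere. There were 36.2 5' ends per Mb of group span and 8.15 per Mb elsewhere. The rule used the positions of the same summits, so this too is a description. No promoter summit was found in 91 groups, 1 to 4 in 139 and 5 or more in 36. The span of 44 groups lay wholly within 1 gene, among them Jade2, Msi2, St6gal1, Ikzf1, Foxp1, Ciita and Tcf4. All summits were outside genes and promoters in 35 groups. Of these, the pair nearest to Myc, the growth-promoting transcription factor, was picked after its values were seen. Their strongest peaks lay 196 and 260 kb downstream of its 5' end. The nearer had 149 in replicate 1 and 103 in replicate 2, and the farther 166 in replicate 1 and 99 in replicate 2.

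The groups with the most promoter summits, also picked after their values were seen, were 2 clusters of replication-dependent histone genes on chromosome 13. The H1f3 group (chr13:23531077-23591436) had 16 of its 21 summits at promoters, and the H1f2 group (chr13:23738727-23763675) 12 of 13. The H1f2 promoter peak had 190 in replicate 1 and 122 in replicate 2. The RefSeq promoter table (GRCm38.p6, plus strand, 250 bases before to 50 after the 5' end) shows no CAGCTG or CACCTG at H1f2. That of Cd80, a costimulatory ligand of activated B cells, holds 1, in capitals. Both are shown because they hold strong peaks of dense groups and differ in the E-box. The Cd80 window belongs to another RefSeq start, more than 1 kb downstream of the Cd80 5' end used for the promoter shares above.
H1f2, chr13:23738557-23738856: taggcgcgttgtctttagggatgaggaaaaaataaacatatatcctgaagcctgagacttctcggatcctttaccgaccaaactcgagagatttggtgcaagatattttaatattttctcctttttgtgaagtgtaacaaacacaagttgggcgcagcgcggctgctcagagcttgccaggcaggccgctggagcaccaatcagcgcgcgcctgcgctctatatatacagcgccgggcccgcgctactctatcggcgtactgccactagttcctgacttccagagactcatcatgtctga
Cd80, chr16:38458683-38458982: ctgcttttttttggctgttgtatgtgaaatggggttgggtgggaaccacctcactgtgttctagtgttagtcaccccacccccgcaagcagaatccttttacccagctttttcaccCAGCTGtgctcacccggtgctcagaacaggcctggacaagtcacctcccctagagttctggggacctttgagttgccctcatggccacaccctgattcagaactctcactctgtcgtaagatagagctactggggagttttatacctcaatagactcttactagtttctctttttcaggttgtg

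The mm9 list holds 23294 autosomal peaks, against 35369 on mm10. On the mm9 list the rule gave 56 groups with 708 peaks, and 55 of these groups share a gene with an mm10 group. In the other direction, only 60 of the 266 mm10 groups share a gene with an mm9 group. The mm9 shares therefore leave out most mm10 groups. Chromosome 11 held 19 of the 56 mm9 groups (33.9%), against 20.7% of the mm10 groups. An E-box CAGCTG or CACCTG, read on both strands, was found no farther than 50 bp from the summit in 37.9% of these members (268 of 708, 34.4 to 41.5%), against 30.8% of other mm9 peaks (30.2 to 31.4%) and 31.1% of all. Promoters held 12.1% of these members and 34.8% of other mm9 peaks, so the overall shares average over different mixes of position. At promoters, 31.4% of members (27 of 86, 22.6 to 41.8%) and 14.3% of other peaks (13.6 to 15.1%) held one. This gap depended on the rule: with a linking distance of 24 kb the shares were 18.3% of members (96 of 525, 15.2 to 21.8%) and 14.2% of other peaks, and with a minimum of 8 summits 24.5% of members and 14.2% of other peaks. Outside promoters the shares were 38.7% in dense groups (35.0 to 42.6%) and 39.7% in other peaks (38.9 to 40.5%), and the intervals overlap. Outside promoters and above a signal of 100, the share was 48.4% in dense groups (89 of 184, 41.3 to 55.5%). In other peaks above that signal it was 54.4% (52.5 to 56.3%), and these intervals also overlap. A group had 0 to 10 peaks with such an E-box, with a median of 4. In the 300-base RefSeq promoter windows, 28.2% of the 252 with a member summit held one, against 28.2% of 5597 with another summit and 32.3% of all.

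Other motifs were set side by side outside promoters on mm9, on either strand. The RUNX motif TGTGGT was in 11.1% of members (8.86 to 13.8%) and 15.2% of other peaks (14.6 to 15.8%). The AP-1 motif TGANTCA was in 8.52% of members (6.57 to 11%) and 10.9% of other peaks (10.4 to 11.4%). The E-box CATCTG was in 14.5% of members (11.9 to 17.5%) and 15.6% of other peaks (15 to 16.1%). The octamer was in 2.09% of members and 3.19% of other peaks, and the PU.1 motif in 3.22% of members and 3.97% of others. The ETS motif was in 0.322% of members and 0.911% of other peaks, and the CREB motif in 0.322% of members and 0.550% of others. The E-box CACGTG was in 2.41% of members and 2.81% of other peaks, and the IRF motif in 3.05% of members and 3.13% of others. The NF-kappaB motif went the other way, with 4.50% of members (3.13 to 6.43%) and 3.78% of other peaks (3.48 to 4.10%). So did the EBF1 motif, with 1.61% of members (0.876 to 2.93%) and 1.51% of other peaks (1.32 to 1.72%). The SP/KLF motif GGGGCGGGG did too, with 1.45% of members (0.763 to 2.73%) and 0.985% of other peaks (0.838 to 1.16%). The GATA motif was in 2.57% of members and 2.28% of other peaks. A control sequence, CGATCG, was in 0.161% of members and 0.116% of other peaks. The intervals of members and other peaks overlapped for each of these motifs but RUNX. In flanking windows 300 bp away, the EBF1 share was 0.322% for members and 0.231% for other peaks. The SP/KLF share there was 1.21% for members and 0.622% for other peaks. Relative to the flanks, EBF1 and SP/KLF were lower in members than in other peaks, as were RUNX, AP-1 and CATCTG. The same held for the octamer, PU.1, ETS, CREB and CACGTG. NF-kappaB stayed higher in members, as did GATA and CGATCG, and relative to the flanks IRF was higher too. The NF-kappaB flank share was 0.241% for members and 0.499% for other peaks, so its ratio in members rests on few flank matches. A match is a description of the letters and not a bound site.

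**Figure D4:**
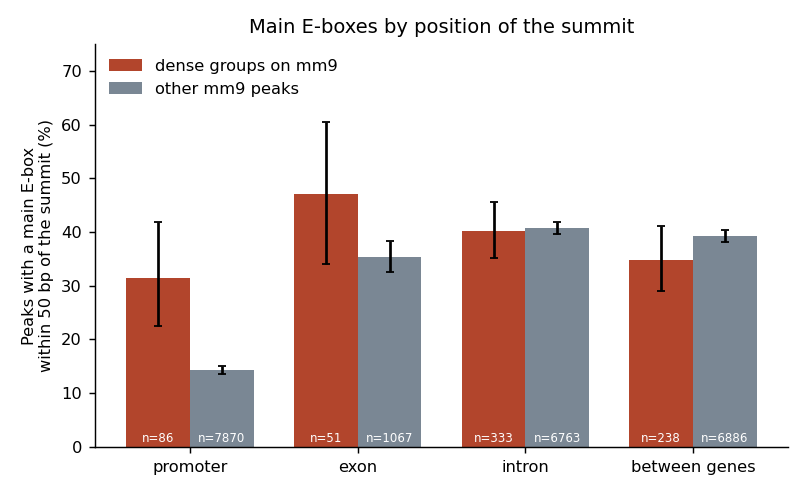
Share of mm9 peaks in % with CAGCTG or CACCTG within 50 bp of the summit, by position of the summit, for dense groups and other mm9 autosomal peaks, with Wilson 95% intervals and the number of peaks in each bar. At promoters the share is 31.4% in dense groups and 14.3% in other peaks (with a linking distance of 24 kb, 18.3% in dense groups and 14.2% in other peaks), and in introns it is 40.2% in dense groups and 40.8% in other peaks.

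Counted from the genes, 471 of 20323 protein-coding genes (2.32%) held a member summit between 10 kb upstream of the 5' end and the 3' end, and 1.69% had their 5' end inside a group. The most were in Septin9 with 36, Hivep3 with 31, Zbtb20 with 28, Jade2 with 26 and Grap, Ksr1 and Msi2 with 24 each.

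Of 29 measured genes of B cell identity and the B cell receptor, 10 held member summits, against the 2.32% of all genes. An optimal summit of any kind was found in 28 of the 29 and in 58.6% of all genes, and of the genes with one 3.96% held a member. Ikzf1, the Ikaros factor, held 21, Foxp1 17, Pou2f2 16, and Ikzf3 and Ciita 14 each. The Ikzf3 summits belong to the Mien1 group, picked after its values were seen. On the optimal list, with every summit counted, this group had the highest summed signal and 9 peaks of at least 100. Its sums over distinct replicate peaks were 1083 in replicate 1 and 707 in replicate 2. The highest such sums of any group were 1100 in replicate 1 and 783 in replicate 2, so Mien1 was first in neither. Pax5, Plcg2, Bach2 and Blnk held optimal peaks but no member.

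Of 28 genes typical of activated or germinal centre B cells, 8 held members, with 19 in Il21r, 17 in Cd86, 13 in Cd80, 11 in Traf1 and 10 in Mef2b. Genes of cytokines and of cytokine and migration receptors had 8 of 20, including Ccr7 with 7 and Cxcr4 with 6. The 8 include the cytokine genes Tnf, Ltb and Lta, named after their values were seen, whose member summits share the Lta group. Signalling and cytoskeletal genes had 9 of 25, led by St6gal1 with 23. Plasma cell genes had 3 of 17, with 12 in Tnfrsf13b, 8 in Prdm1 and 6 in Irf4.

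Of 19 E proteins, ID proteins and partners, 2 held members: Cbfa2t3 with 11 and Tcf4, which encodes the E protein E2-2, with 10. Tcf12 and Tcf3 held optimal peaks outside dense groups. Among 30 other lymphoid and myeloid factors 4 held members, led by Nfatc1 with 23 and Arid3a with 12. Members were held by 1 of 10 MHC class II genes (Ciita), 1 of 18 T cell genes (Lck, with 8) and 2 of 24 ribosomal protein genes. None was held by the 12 macrophage, 8 erythroid or 15 nerve and muscle genes. Since 2.32% of all genes held a member, lists this short would often hold none. Over all lists 45 of 249 genes held a member summit. The lists were chosen with earlier results of these data known and share genes, so these counts are a description.

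Chromosome 11 held 55 of the 266 groups (20.7%) but 11.2% of autosomal peaks and 7.83% of genes. This is 13.9 groups per 1000 peaks, with 11.9 on chromosome 16 and 3.70 to 9.09 on the other autosomes. The rule links summits at a fixed distance, and chromosome 11 also had the densest peaks, 32.4 optimal peaks per Mb against 9.73 to 17.6 on the other autosomes. The excess of groups and the density of peaks on chromosome 11 cannot be told apart here. Each replicate alone placed 20.5% (replicate 1) and 21.6% (replicate 2) of its own groups on chromosome 11. Weak peaks, meaning pooled relaxed peaks without any overlap with the optimal list, were also densest on chromosomes 11 and 16. There were 234 per Mb on chromosome 11, 162 on chromosome 16 and 77.7 to 114 on the others. Among those others the orders differed. Chromosome 19 had the fewest groups per 1000 peaks (3.70, from 4 groups) with 114 weak peaks per Mb. Chromosome 15 had 9.09 groups with 99.7 weak peaks per Mb. These 2 rates did not hold between lists. In each replicate's own groups, chromosome 19 had 10.2 in replicate 1 and 8.28 in replicate 2. Chromosome 15 had 10.1 in replicate 1 and 3.32 in replicate 2. Weak peaks were also denser inside groups, at 49.9 per 100 kb against 10.3 elsewhere. The part of this background in the number of groups was not tested.

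**Figure D5:**
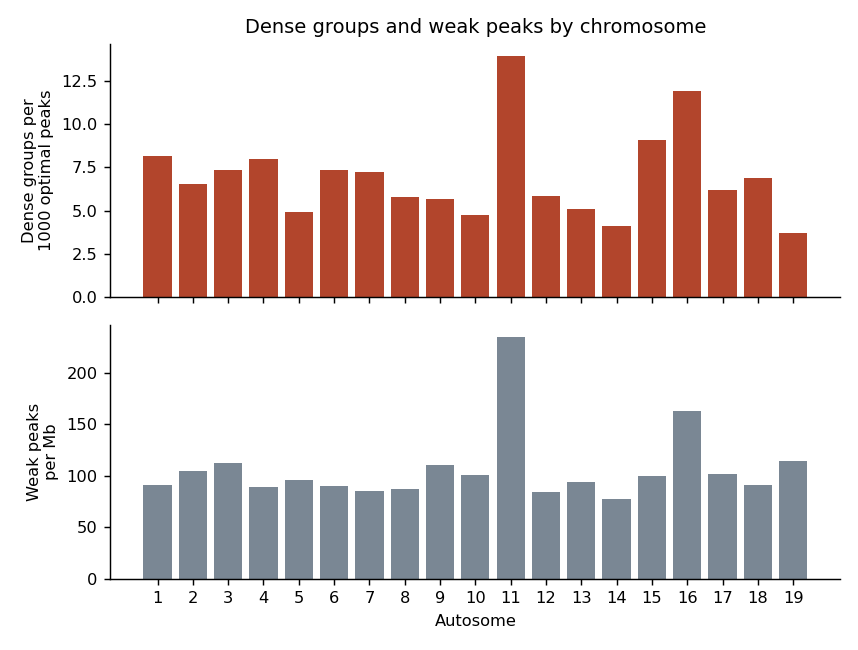
Dense groups per 1000 optimal peaks (top) and weak peaks per Mb (bottom) on each autosome. Chromosomes 11 and 16 are highest in both panels, while the order of the others differs between the panels, with 13.9 and 11.9 groups per 1000 peaks and 234 and 162 weak peaks per Mb.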

How the data were processed

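TCF12 ChIP-seq of 2 biological replicates (1 group) was used as peak lists. Per the deposited file descriptions, the authors called relaxed lists of 300000 peaks on each replicate and on the pooled data, derived the optimal and conservative mm10 lists from them by an irreproducible discovery rate (IDR) step, and made the mm9 list from both alignments. The aligner and peak caller were not given in the sources used here. The deposited signal is the caller's own, with no stated scaling, and read depth is unknown. The deposited score is the scaled IDR score, and 830 or more stood for an IDR up to 0.01.

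Groups were built as stated, with Python 3.11.15, pandas 2.3.3 and scipy 1.17.1, and the grouping was tested on simulated data. Peaks overlapped at 1 bp or more. Sums per replicate count each distinct signal value within a group once. Genes were the RefSeq protein-coding genes of GRCm38.p6, with strand from the RefSeq promoter table or GENCODE vM1 for 20323 of 20665 (98.3%). Sequence, exons and introns came from mm9 (NCBIM37), since no mm10 genome was used here. No coordinate was converted. With 1 group there is no test, and Wilson 95% intervals cover counting error only.

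Members and gene lists were chosen with earlier results of these data known. Named groups are the 10 with the most summits, the 5 with the highest median, the 5 densest and the 3 with the lowest median signal. Named peaks are the 10 strongest members and the strongest of each named group. Named genes hold 8 or more member summits, are nearest to a named group, or are up to 5 with and 4 without members in each list. Others are said to have been picked after their values were seen.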

Additional observations from a re-analysis of the deposited data

How the results depend on the processing

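The number of groups depends on the rule. Against 266 groups with 3559 members, a linking distance of 6 kb gave 99 groups and 1222 members and one of 24 kb gave 573 and 8652. A minimum of 8 summits gave 488 and 5444, one of 15 gave 75 and 1383, and an IDR of 0.01 or less gave 85 and 1053. Merging overlapping peaks first gave 181 groups and 2350 members. Leaving out 1 replicate gave 258 to 273 groups and 3439 to 3659 members. The ratio of the median signal of members to that of other peaks was 1.03. It was 1.00 at 6 kb, 1.07 for a minimum of 15 summits, 1.07 for merged peaks, 1.06 at the stricter IDR and 1.06 to 1.08 without 1 replicate.

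The promoter share of members, 14.8%, was 12.1% at 6 kb, 19.4% at 24 kb, 13.9% for a minimum of 15, 12.8% for merged peaks, 16.8% at the stricter IDR, 15.1% on the conservative list and 14.8 to 15.1% without 1 replicate. It stayed below that of other peaks under each of these regroupings. With promoters drawn at 500 bp it was 10.6% and at 2 kb 21.0%. The share of mm9 members with CAGCTG or CACCTG was 20.9% with a window of 25 bp and 52.7% with 100 bp. At promoters it was 19.8% and 44.2%, and 18.3% with a linking distance of 24 kb (14.2% of other peaks), against 31.4%. Outside promoters it was 21.1% and 53.9%. The cause of these shifts was not tested. No paired analysis was possible because there is 1 group. Unknown read depth limits every signal value.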
